A study of Homo sapiens with 9 samples.

Results

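Transcripts of 51 genes that work in G2 phase and mitosis were followed in A375 cells, an established human melanoma line, after SPANX knockdown. The genes were taken by symbol from a list that was chosen with earlier results of these data known. All 51 were present in the 9 libraries, and all 51 were among the 13825 genes tested. RNA was taken on day 7 and counted from transcript 3' ends (QuantSeq, which primes at the poly(A) tail). There were 3 groups of 3 libraries: EV control, SPANX KD 86 and SPANX KD 87, the last 2 called construct 86 and construct 87 here. All 9 come from the A375 line, and what the constructs consist of, and whether replicates are separate cultures, is not given in the sources used here. The p-values are therefore set against a spread between libraries that could be technical. The comparisons ask which mitotic transcripts differed from EV control with each construct, and whether the constructs differed from each other.

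Cells enter mitosis when cyclin B binds and activates the kinase CDK1, which the CDC25 phosphatases switch on by removing inhibitory phosphates. Kinetochores then attach chromosomes to spindle microtubules, and the spindle checkpoint holds back the anaphase-promoting complex until attachment is complete. Many of these genes are transcribed late in the cell cycle, and a promoter element called the CHR (cell cycle genes homology region), often beside CCAAT boxes bound by NF-Y, is known to control that timing. Proliferating melanoma cells, like other dividing cells, express the whole programme.

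To show what the promoters of these genes look like, RefSeq sequences (GRCh38.p14) from 250 bases before to 50 bases after each start were searched. Of the 51 genes 44 matched, with 54 promoters. The CHR was searched as TTTGAA, which on the other strand reads TTCAAA, and as the palindrome TTCGAA. The CCAAT box was searched as CCAAT, which on the other strand reads ATTGG, and overlaps were allowed. A CHR was found in 38 of the 54 promoters (70.4%), against 16.4% of all 35116 promoters, and a CCAAT box in 42 (77.8%), against 34.6%. Both occurred in 33 (61.1%), against 6.38%. These are matches of letters, not measured binding. Below are the 120 bases before the start of 6 members with a single promoter in the table, 5' to 3', with CHR and CCAAT letters in capitals. Among such members HMMR, CKS2, CCNB2 and PLK1 had the largest falls in the mean of both constructs, and CKAP2 and CENPF the smallest change.
HMMR (chr5:163460512-163460631, plus strand): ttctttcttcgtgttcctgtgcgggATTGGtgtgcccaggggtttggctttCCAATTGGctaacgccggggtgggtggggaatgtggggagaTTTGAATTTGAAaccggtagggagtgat
CKS2 (chr9:89311075-89311194, plus strand): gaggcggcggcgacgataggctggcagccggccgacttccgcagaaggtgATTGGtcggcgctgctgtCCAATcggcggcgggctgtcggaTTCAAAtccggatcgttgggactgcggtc
CCNB2 (chr15:59105026-59105145, plus strand): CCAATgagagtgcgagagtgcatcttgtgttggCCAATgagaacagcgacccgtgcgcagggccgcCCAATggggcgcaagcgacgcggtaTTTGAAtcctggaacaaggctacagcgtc
PLK1 (chr16:23678769-23678888, plus strand): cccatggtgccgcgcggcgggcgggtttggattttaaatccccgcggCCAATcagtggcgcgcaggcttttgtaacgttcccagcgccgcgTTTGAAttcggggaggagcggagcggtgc
CKAP2 (chr13:52455868-52455987, plus strand): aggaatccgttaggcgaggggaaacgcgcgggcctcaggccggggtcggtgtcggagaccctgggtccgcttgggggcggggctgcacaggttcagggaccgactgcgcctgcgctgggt
CENPF (chr1:214603075-214603194, plus strand): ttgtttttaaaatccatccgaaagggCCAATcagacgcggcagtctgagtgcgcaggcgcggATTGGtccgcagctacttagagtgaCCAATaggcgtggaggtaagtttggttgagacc
In HMMR, whose product binds hyaluronan and the spindle, 2 adjoining CHR matches began at positions -28 and -22, counted from the start. CKS2, CCNB2 and PLK1 each held 1 CHR match beginning at -29. In HMMR a CCAAT and an ATTGG overlap. CKAP2 had neither element in the whole window searched. CENPF had 3 CCAAT boxes in the stretch printed. After its start it had a CCAAT box (ATTGG) beginning at position 12 and a CHR (TTTGAA) beginning at position 40. It is therefore counted among the promoters with both. The printed promoters were picked by fold change. CCNB1 and CCNA2 had no CHR match, with -1.61 and -1.55 on the log2 scale in the mean of both constructs. MKI67, which passed with neither construct, had CHR matches beginning at -47 and -29. ANLN also had adjoining CHR matches, beginning at -26 and -20. Whether a CHR goes with the size of the fall was not tested.

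The knockdown was checked first, and the libraries were compared as a whole. SPANXC stood between 150 and 511 normalised reads in the EV libraries, between 35.1 and 102 with construct 86 and between 18.0 and 33.6 with construct 87. SPANXD stood between 27.4 and 102 in EV libraries, between 0 and 0.969 with construct 86 and between 5.25 and 7.13 with construct 87, so construct 87 had the lower SPANXC and construct 86 the lower SPANXD. Both fell with each construct (limma, adjusted p = 0.00372 and 0.00335 for SPANXC, 0.000145 and 0.00804 for SPANXD). These were the 2 SPANX genes above 0 of 10 in the files, and as near copies they could share reads. Levels here are reads scaled to a common library size, over depths of 11.31 to 15.56 M reads. On the first principal component (48.2% of the variance) EV replicate 2 stood at -23.46, apart from the other EV libraries at -59.76 and -60.57 and above construct 87 replicate 3 at -35.66. Of 7 melanocyte markers 4 were above 0, with SOX10 and MITF detected and MLANA, TYR and DCT at 0; their sum was 3086 to 6599 in EV libraries, 13957 to 20315 with construct 86 and 8159 to 12384 with construct 87. Most of that sum was SOX10 (2266 to 5890, 12747 to 19639 and 7095 to 11348), while MITF (471 to 675, 393 to 822 and 695 to 764) and PMEL (8.62 to 19.2, 2.64 to 18.8 and 19.7 to 32.6) had construct 86 ranges that overlapped EV. S100B (75.8 to 257, 177 to 378 and 253 to 628) overlapped EV with both constructs. All 6 fibroblast markers were above 0 (sums of 426 to 481, 1106 to 1409 and 881 to 1107). Of these LUM, PDGFRA and DCN lay above EV with both constructs. COL1A2 overlapped EV with both, and COL1A1 and PDGFRB did so with construct 87. Of 4 leukocyte markers 1 was above 0 (145 to 262, 238 to 336 and 366 to 819), while the epithelial markers and the endothelial CDH5 and VWF were at 0. The endothelial marker PECAM1 was not found by symbol. The part of these marker changes in the results was not tested.

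Mitotic transcripts were lower with both constructs, and none of the 51 was called higher by limma, nor at an unadjusted p under 0.05. With construct 86, 35 of 51 fell (limma, adjusted p under 0.05), against 17.6% of all tested genes called lower and 18.0% called higher. With construct 87, 27 fell, against 4.43% of all genes called lower and 5.91% called higher. Because the list was chosen with earlier results of these data known, these counts are no independent test. The median log2 fold change over the 51 was -1.09 with construct 86, where all genes had -0.037, and -1.07 with construct 87. The log2 fold change was below 0 for 50 members with construct 86 and for 51 with construct 87. In bulk RNA, fewer cells in mitosis and less of these transcripts per cell cannot be told apart. The 2 comparisons share the EV libraries, and for counts over both together no share of all genes was computed. Of the 51, 21 fell with both constructs, 14 passed with construct 86 and not construct 87, 6 with construct 87 and not construct 86, and 10 with neither; the difference between the constructs has its own test.

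For most members the knockdown and EV libraries did not overlap. All 3 construct 86 libraries lay below all 3 EV libraries for 40 members (22.8% of all genes did so), and all 3 construct 87 libraries did for 36 (14.0% of all genes). The level summed over the 51 genes was 96076, 107460 and 85181 in the EV libraries. It was 52384, 45547 and 39029 under construct 86 and 33799, 55179 and 49965 under construct 87. Every knockdown library was thus below every EV library, and construct 87 replicate 1 was the lowest of the 9. The median deviation of the members from the EV mean was -1.6 on the log2 scale in construct 87 replicate 1, against -0.75 and -0.89 in the other construct 87 libraries. The construct 87 libraries also differed more among themselves for these genes (median log2 SD 0.46) than over all genes (0.28), whereas the construct 86 libraries had 0.27 for both.

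**Figure D1:**
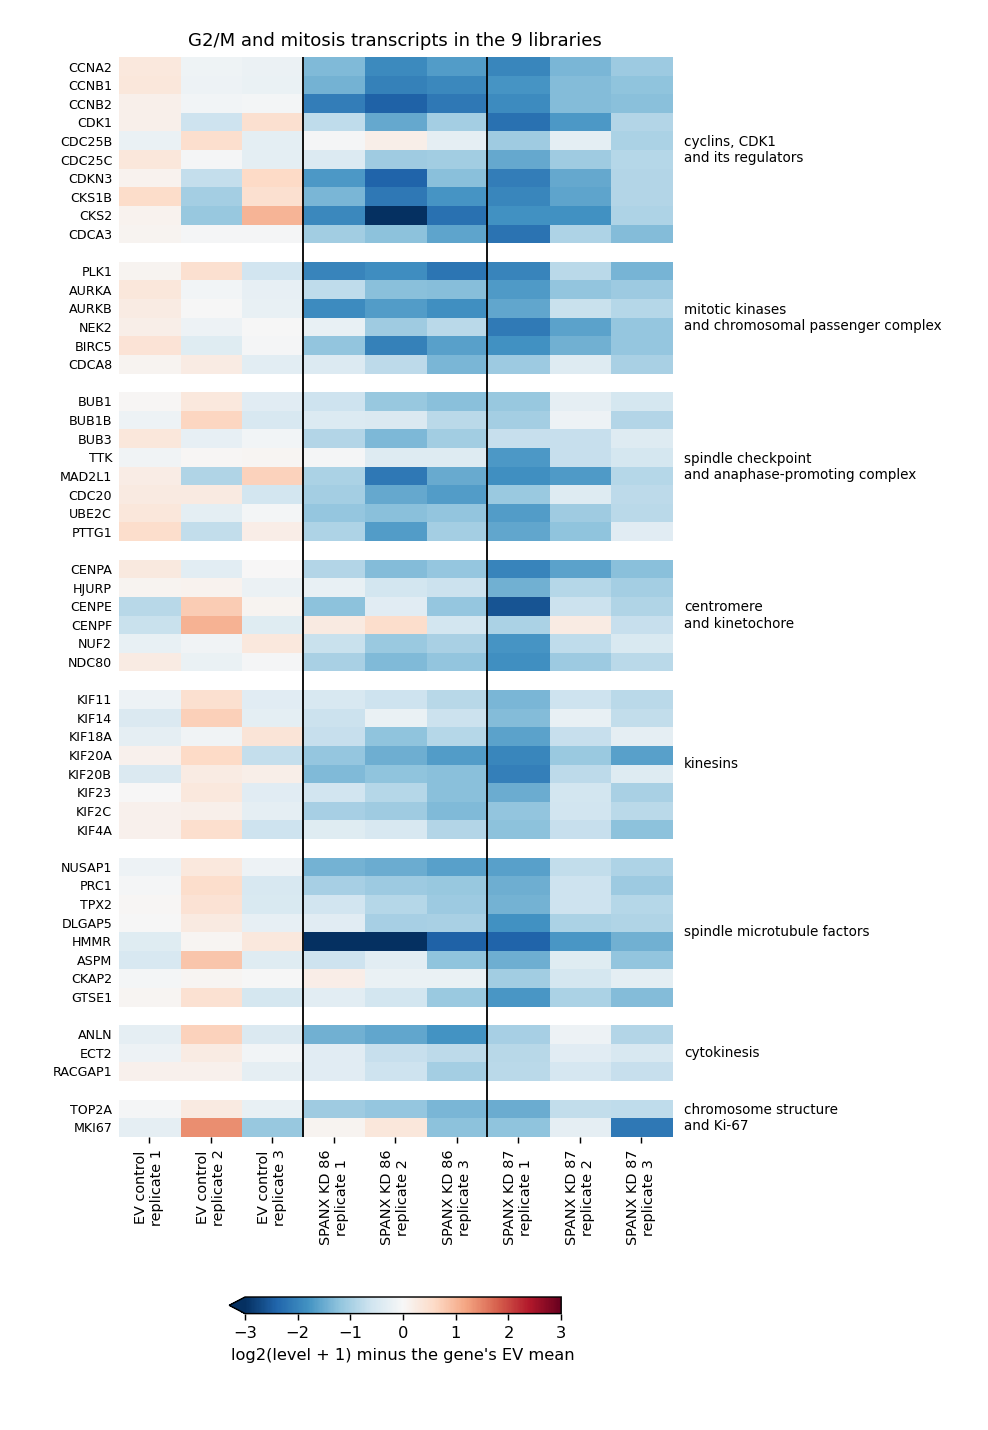
Each row is 1 gene and each column 1 library, and colour gives log2(level + 1) minus the gene's mean in EV libraries, grouped by function; values under -3 share the darkest blue. Blue fills most of the 6 knockdown columns, with HMMR, CKS2 and CCNB2 darkest under construct 86 and construct 87 replicate 1 darker than its 2 replicates.

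Libraries of the same replicate number deviated from their group means in a related way, so members were also compared within numbers. Whether replicates are paired is not given in the sources used here, and the block rests on these same data. With the replicate number as a block, 45 of 51 fell with construct 86 (28.3% of all genes called lower) and 49 with construct 87 (14.8% of all genes). With it 44 fell with both, for which no share of all genes was computed. Within numbers, 46 members were lower in all 3 pairs with construct 86, against 37.1% of all genes, and 51 with construct 87, against 29.8%. Single libraries weighed more on the construct 87 calls. Without EV replicate 2, which stood apart, 29 members passed with each construct. Without construct 87 replicate 1, 6 of the 27 construct 87 calls remained, and without EV replicate 1, 9 did, with the construct 87 median of the 51 between -1.24 and -0.84 over the 9 omissions. For construct 86 the fewest calls, 23, were left without construct 86 replicate 2. With each of the 9 libraries left out in turn, 23 construct 86 calls held throughout, and 12 ended at least once (CDK1, CDC25C, CDCA8, BUB1, MAD2L1, PTTG1, NUF2, KIF20B, KIF23, TPX2, ECT2 and RACGAP1). Of the construct 87 calls 5 held throughout, those of CCNA2, CCNB1, CCNB2, CENPA and NEK2. A single adjusted p given for an omitted library is the highest for that gene unless more are listed.

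**Figure D2:**
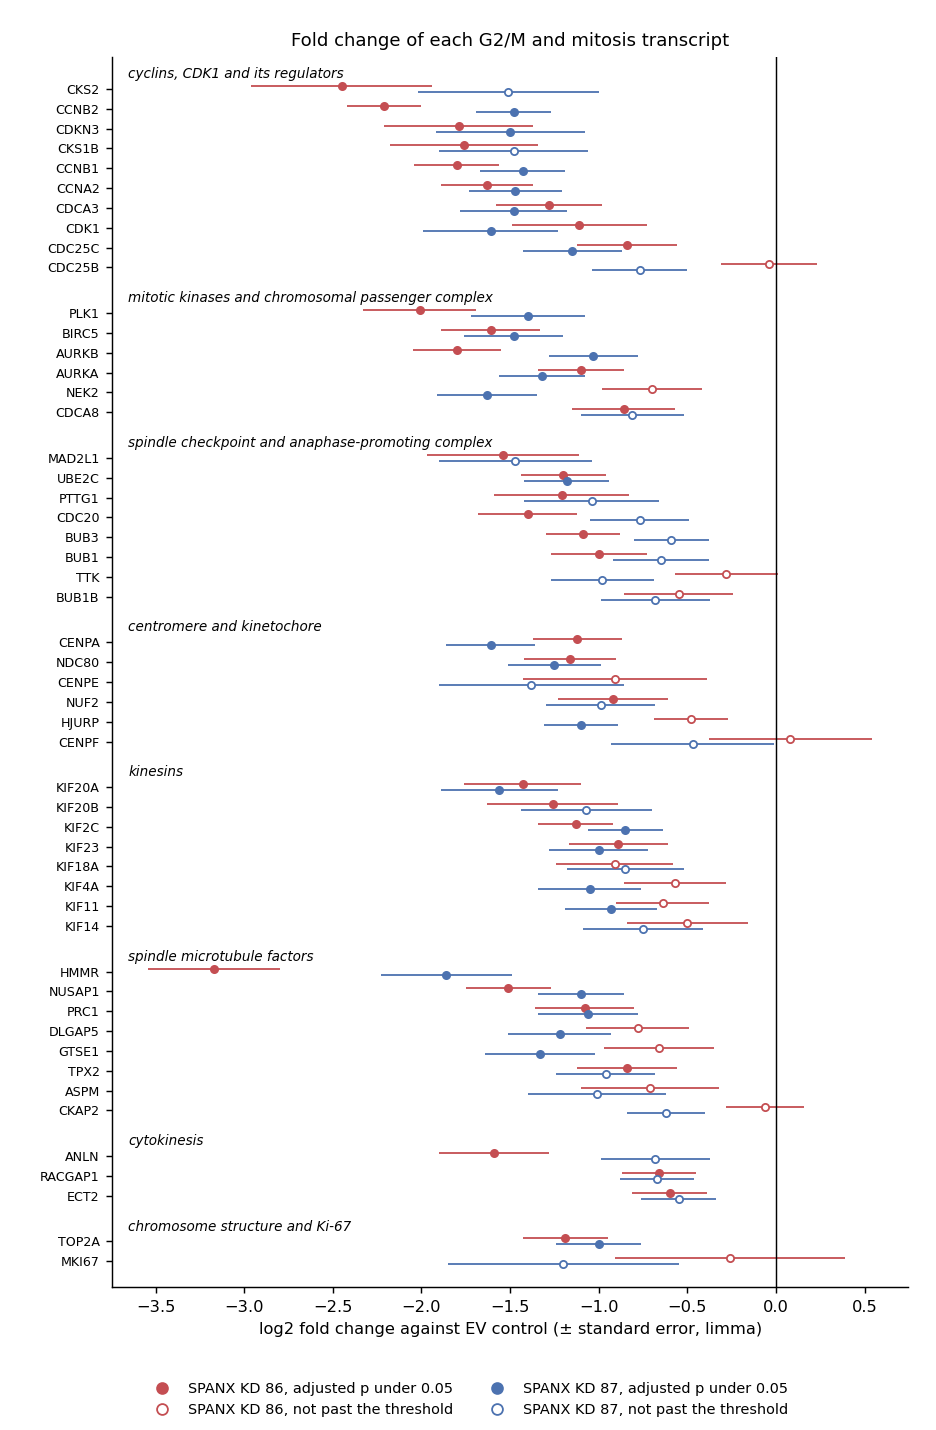
The log2 fold change against EV control is plotted for each gene with its limma standard error, for construct 86 (red) and construct 87 (blue); filled points passed the threshold without the replicate block. Nearly all points lie left of 0, from -3.17 for HMMR to 0.08 for CENPF with construct 86, and the cyclin group reaches further left than the cytokinesis group.

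The cyclins, CDK1 and its regulators fell in 9 of 10 members with construct 86 and 7 of 10 with construct 87, with medians of -1.69 and -1.48 on the log2 scale. CCNB1 (ENSG00000134057.14), cyclin B1, the activating subunit of CDK1 at mitotic entry, stood at 5557, 3958 and 3777 normalised reads in EV libraries, with 1643, 1063 and 1134 under construct 86 and 1274, 1779 and 1879 under construct 87. All 6 knockdown libraries lay below the lowest EV library, and the level fell by 3.47-fold (log2 -1.80 ± 0.24 SE, adjusted p = 0.000524) and by 2.69-fold (-1.43 ± 0.24, adjusted p = 0.00688). CCNB2 (ENSG00000157456.7), cyclin B2, was at 1617, 1375 and 1392 in EV libraries, 348, 271 and 327 under construct 86 and 394, 590 and 614 under construct 87. It was the member with the smallest adjusted p with construct 86, falling 4.64-fold (adjusted p = 9.52e-05), and fell with construct 87 by 2.78-fold (adjusted p = 0.00364). CCNA2, cyclin A2, which acts from S phase into early mitosis, stood at 2177, 1580 and 1532 in EV libraries, 692, 465 and 548 under construct 86 and 445, 677 and 818 under construct 87. Its fall was 3.10-fold (adjusted p = 0.00119) and 2.77-fold (adjusted p = 0.00804). Both B cyclins and cyclin A2 kept these calls with any 1 library left out.

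CDK1 (ENSG00000170312.15), the kinase itself, was more spread: 2481, 1445 and 3117 normalised reads in EV libraries, 1315, 765 and 1099 under construct 86 and 475, 676 and 1224 under construct 87. The groups did not overlap, though EV replicate 2 came close to the highest knockdown library. The fall was 2.16-fold (adjusted p = 0.0406) and 3.05-fold (adjusted p = 0.0239), and leaving out 1 library ended the first call in 5 of 9 cases (adjusted p up to 0.147, without construct 86 replicate 2) and the second in 4 (up to 0.112, without construct 87 replicate 1). CKS2, a small protein that binds CDK1 and helps it reach its substrates, had the second largest fall of the set with construct 86. It stood at 3448, 1446 and 6506 in EV libraries, 835, 347 and 679 under construct 86 and 911, 902 and 1689 under construct 87, where the highest construct 87 library passed the lowest EV library. It fell with construct 86 by 5.48-fold (log2 -2.45 ± 0.51 SE, adjusted p = 0.00443). With construct 87 its log2 fold change of -1.51 gave adjusted p = 0.0842, and 0.00266 with the block. CKS1B, its relative, gave -1.76 on the log2 scale (adjusted p = 0.00929) and -1.48 (adjusted p = 0.0506, and 0.00524 with the block). The phosphatase CDC25C fell by 1.79-fold and by 2.22-fold (adjusted p = 0.0409 and 0.0285), CDKN3, a phosphatase of CDK1 and CDK2, by 3.46-fold and by 2.83-fold (adjusted p = 0.00827 and 0.0463), and CDCA3, which promotes the breakdown of the CDK1 inhibitor WEE1, by 2.43-fold and by 2.78-fold (adjusted p = 0.0078 and 0.0130). Omitting 1 library ended both calls of CDC25C (adjusted p up to 0.143 without construct 86 replicate 2 and 0.128 without construct 87 replicate 1), and the construct 87 calls of CDKN3 (up to 0.194 without construct 87 replicate 1) and CDCA3 (0.0584 without EV replicate 1). CDC25B, which acts at the start of mitosis, was the exception: 2228, 3633 and 2098 in EV libraries, 2508, 2899 and 2135 under construct 86 and 1219, 2090 and 1340 under construct 87. With construct 86 it overlapped EV (log2 -0.04, adjusted p = 0.917). That log2 fold change turned to 0.21 without EV replicate 2 and to 0.07 without construct 86 replicate 3. With construct 87 all 3 libraries lay below EV without passing (-0.77, adjusted p = 0.0946, and 0.00377 with the block).

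Mitotic kinases and members of the chromosomal passenger complex, the Aurora B complex that corrects faulty attachments, fell in 5 of 6 with each construct, with a median of -1.36 for both. PLK1 (ENSG00000166851.14), the polo-like kinase needed for spindle assembly and mitotic exit, stood at 2997, 3966 and 1896 normalised reads in EV libraries, 717, 780 and 614 under construct 86 and 718, 1607 and 1066 under construct 87. It fell by 4.03-fold (adjusted p = 0.00123) and by 2.63-fold (adjusted p = 0.0226), and no knockdown library reached the lowest EV library. AURKB (ENSG00000178999.12), Aurora B, was at 1572, 1316 and 1127 in EV libraries, 358, 417 and 367 under construct 86 and 448, 838 and 734 under construct 87. The 3 construct 86 libraries were close together, and the fall was 3.48-fold (adjusted p = 0.000529), against 2.04-fold with construct 87 (adjusted p = 0.0254, and 0.0567 once the trend with transcript length was removed). BIRC5, survivin, a passenger subunit also known to block apoptosis, went from 2788, 1654 and 2049 in EV libraries to 934, 519 and 678 under construct 86 and 597, 773 and 941 under construct 87. All 6 knockdown values were below all EV values, with falls of 3.06-fold (adjusted p = 0.0017) and 2.79-fold (adjusted p = 0.00959). AURKA, Aurora A, a kinase of the spindle poles, fell by 2.14-fold and by 2.5-fold (adjusted p = 0.00614 and 0.00919). CDCA8, borealin, another passenger subunit, fell with construct 86 by 1.81-fold (adjusted p = 0.0383; 0.136 without construct 86 replicate 3) and gave -0.81 on the log2 scale with construct 87 (adjusted p = 0.0948, and 0.0120 with the block). NEK2, a kinase that splits centrosomes, is described with the differences between constructs. Without construct 87 replicate 1 the construct 87 calls of PLK1 (adjusted p = 0.105), AURKB (0.100), BIRC5 (0.0546) and AURKA (0.05) ended, and without EV replicate 1 those of PLK1 (0.0868) and AURKB (0.102).

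**Figure D3:**
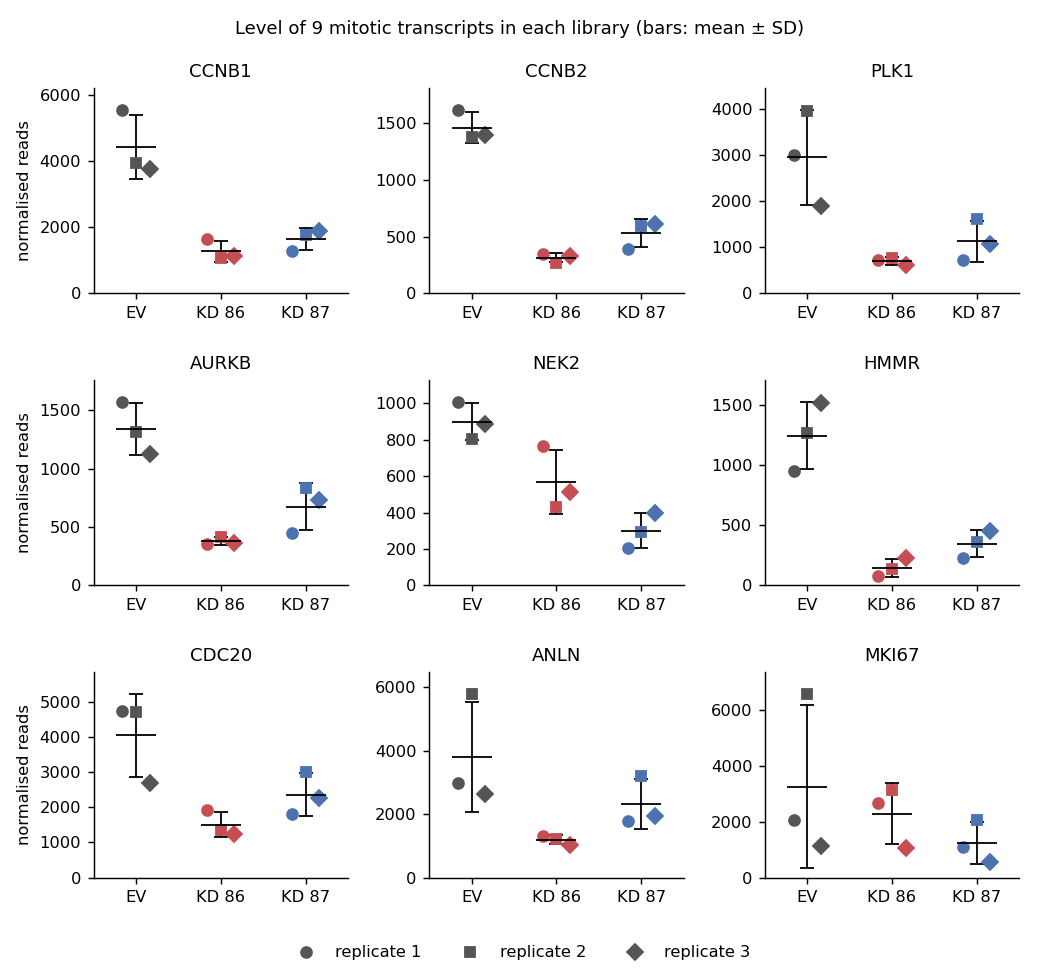
Normalised reads are plotted for 9 genes in each library, with circles, squares and diamonds for replicates 1, 2 and 3, a dash for the mean and whiskers for the SD of 3 libraries; each axis starts at 0 and has its own scale. CCNB2, AURKB and HMMR show knockdown libraries well below EV with construct 86 the lower of the constructs, NEK2 shows the opposite order, and MKI67 has 1 EV library far above the other 2.

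Spindle checkpoint and anaphase-promoting complex genes fell in 6 of 8 members with construct 86 and in 1 of 8 with construct 87, with medians of -1.14 and -0.88; with the block 7 of 8 fell with each. Between the constructs 0 of these 8 differed past the threshold (limma), against 25.6% of all genes, and 3 did with the block, against 44.1%. At an unadjusted p under 0.05, for which no share of all genes was computed, 3 did (1 lower and 2 higher with construct 87). UBE2C, the ubiquitin-conjugating enzyme that serves the anaphase-promoting complex, was the member that passed with both. It stood at 2470, 1595 and 1868 normalised reads in EV libraries, 872, 818 and 855 under construct 86 and 610, 927 and 1115 under construct 87. The construct 86 libraries agreed closely, and the falls were 2.29-fold (adjusted p = 0.0041) and 2.27-fold (adjusted p = 0.0148; 0.0671 without construct 87 replicate 1 and 0.0667 without EV replicate 1). CDC20 (ENSG00000117399.13), which activates that complex and is the checkpoint's target, was at 4738, 4728 and 2695 in EV libraries, 1929, 1362 and 1237 under construct 86 and 1801, 3006 and 2266 under construct 87. It fell with construct 86 by 2.65-fold (adjusted p = 0.00392). With construct 87 it overlapped EV (log2 -0.77, adjusted p = 0.112, and 0.0256 with the block). Of the near copies of members searched by symbol, its pseudogene CDC20P1 was the one above 0, at 80.0 normalised reads at most.

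MAD2L1, the MAD2 protein that binds and holds CDC20, stood at 2537, 1160 and 3514 normalised reads in EV libraries, 1121, 494 and 762 under construct 86 and 608, 671 and 1194 under construct 87. EV replicate 2 was low here, at the level of the highest knockdown libraries. On the log2 scale the changes were -1.54 ± 0.43 SE (adjusted p = 0.0185; 0.0771 without construct 86 replicate 2, 0.0696 without EV replicate 1 and 0.0686 without EV replicate 3) and -1.47 ± 0.43 (adjusted p = 0.0550, and 0.00285 with the block). BUB3, which recruits checkpoint kinases to kinetochores, was at 4986, 3273 and 3670 in EV libraries, 2116, 1530 and 1904 under construct 86 and 2436, 2404 and 2978 under construct 87. It did not overlap in either case, and fell with construct 86 by 2.13-fold (adjusted p = 0.00329), with -0.59 on the log2 scale for construct 87 (adjusted p = 0.101, and 0.0179 with the block). The kinase BUB1 fell with construct 86 by 2.0-fold (adjusted p = 0.0166; 0.062 without construct 86 replicate 2) and had -0.65 with construct 87 (adjusted p = 0.153, and 0.0567 with the block). PTTG1, securin, which restrains separase until anaphase, fell with construct 86 by 2.31-fold (adjusted p = 0.0314; 0.125 without EV replicate 1) and had -1.04 with construct 87 (adjusted p = 0.109, and 0.0147 with the block).

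The 2 checkpoint genes that passed with neither construct were BUB1B and TTK. BUB1B, the BUBR1 subunit of the complex that blocks CDC20, stood at 816, 1406 and 647 normalised reads in EV libraries, 679, 673 and 514 under construct 86 and 442, 820 and 495 under construct 87, with overlap in both comparisons. On the log2 scale it gave -0.55 (adjusted p = 0.193) and -0.68 (adjusted p = 0.191), and 0.0283 and 0.0204 were the adjusted p with the block. TTK, the MPS1 kinase that starts checkpoint signalling, was at 606, 668 and 674 in EV libraries, 632, 493 and 494 under construct 86 and 195, 402 and 448 under construct 87. All construct 87 libraries were below EV, with a change of -0.98 on the log2 scale that missed the threshold (adjusted p = 0.0550, and 0.0141 with the block), while construct 86 gave -0.28 (adjusted p = 0.479).

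Centromere and kinetochore genes fell in 3 of 6 members with each construct, with medians of -0.92 and -1.18. CENPA (ENSG00000115163.14), the histone H3 variant that marks centromeres, stood at 607, 394 and 498 normalised reads in EV libraries, 266, 199 and 218 under construct 86 and 124, 162 and 207 under construct 87. It fell by 2.17-fold (adjusted p = 0.00656) and by 3.05-fold (adjusted p = 0.00495), with no overlap, and kept both calls with any 1 library left out. NDC80, the microtubule-binding core of the kinetochore, was at 750, 554 and 615 in EV libraries, 322, 252 and 280 under construct 86 and 178, 298 and 359 under construct 87. Its fall was 2.24-fold (adjusted p = 0.00716) and 2.37-fold (adjusted p = 0.0164; 0.0737 without EV replicate 1 and 0.0604 without construct 87 replicate 1). NUF2, its partner in the same complex, fell with construct 86 by 1.90-fold (adjusted p = 0.0405; 0.128 without EV replicate 3) and had -0.99 with construct 87 (adjusted p = 0.0694, and 0.0140 with the block). HJURP, the chaperone that loads CENPA, was at 847, 856 and 702 in EV libraries, 685, 543 and 508 under construct 86 and 293, 442 and 393 under construct 87. Both knockdown groups lay below EV, the fall with construct 87 passed (2.15-fold, adjusted p = 0.0106; 0.0552 without construct 87 replicate 1), and construct 86 gave -0.48 (adjusted p = 0.102).

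The large kinetochore proteins CENPE and CENPF passed with neither construct. CENPE, a kinesin that moves chromosomes to the spindle equator, stood at 381, 1149 and 719 normalised reads in EV libraries, 290, 536 and 306 under construct 86 and 111, 434 and 362 under construct 87. EV replicate 2 was the highest of the 9 libraries and EV replicate 1 lay within the range of both knockdown groups, and the changes of -0.91 and -1.38 on the log2 scale had adjusted p = 0.200 and 0.119, or 0.00889 and 0.00239 with the block. CENPF was at 1680, 5471 and 2061 in EV libraries, 3216, 3852 and 1815 under construct 86 and 1374, 3149 and 1654 under construct 87. The EV range took in all construct 86 libraries, and this was the member with a log2 fold change above 0 (0.08 with construct 86, adjusted p = 0.907, and -0.47 with construct 87, adjusted p = 0.547). The sign with construct 86 turned to -0.25 without EV replicate 1 and to -0.39 with the length trend removed, and the construct 87 value turned to 0.05 without EV replicate 2.

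Kinesins, the motors that move and shape the spindle, fell in 4 of 8 members with construct 86 and 5 of 8 with construct 87, and in 8 of 8 with each when the block was included. Medians were -0.90 and -0.97. KIF2C, which depolymerises microtubules at kinetochores, stood at 1910, 1930 and 1440 normalised reads in EV libraries, 871, 830 and 699 under construct 86 and 773, 1171 and 1001 under construct 87. It fell by 2.19-fold (adjusted p = 0.00256) and by 1.80-fold (adjusted p = 0.0289), without overlap. KIF20A, a kinesin of the central spindle, was at 1762, 2426 and 986 in EV libraries, 727, 588 and 502 under construct 86 and 418, 746 and 520 under construct 87. It had the largest fall of the group, by 2.70-fold (adjusted p = 0.00743) and by 2.96-fold (adjusted p = 0.0156). KIF23, part of centralspindlin, was at 1766, 2186 and 1393 in EV libraries, 1171, 975 and 734 under construct 86 and 628, 1194 and 897 under construct 87. Its fall was 1.86-fold (adjusted p = 0.0284; 0.100 without construct 86 replicate 3) and 2.0-fold (adjusted p = 0.0450; 0.192 without construct 87 replicate 1). That same library ended the construct 87 calls of KIF2C (adjusted p = 0.135) and KIF20A (0.0834).

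None of the 8 kinesins differed between the constructs past the threshold (limma), against 25.6% of all genes, and 0 did with the block, against 44.1%. At an unadjusted p under 0.05, for which no share of all genes was computed, 0 did. KIF20B fell with construct 86 by 2.39-fold (adjusted p = 0.0230; 0.0688 without EV replicate 3), with -1.07 for construct 87 (adjusted p = 0.0909, and 0.00803 with the block). KIF11, the motor Eg5 that pushes spindle poles apart, fell with construct 87 by 1.91-fold (adjusted p = 0.0462) and had -0.64 with construct 86 (adjusted p = 0.0783, and 0.0180 with the block). KIF4A, which organises chromosome arms and the midzone, fell with construct 87 by 2.08-fold (adjusted p = 0.0448) and had -0.57 with construct 86 (adjusted p = 0.148, and 0.0201 with the block); for KIF11 and KIF4A the call with construct 87 ended in 8 of 9 omissions of 1 library, at most at adjusted p = 0.197 and 0.173 without construct 87 replicate 1. KIF14 and KIF18A passed with neither. KIF14, a kinesin of cytokinesis, stood at 763, 1691 and 839 in EV libraries, 652, 900 and 658 under construct 86 and 414, 886 and 613 under construct 87 (log2 -0.50 and -0.75, adjusted p = 0.280 and 0.185, or 0.0298 and 0.00848 with the block). KIF18A, which damps chromosome movement at the spindle equator, was at 324, 369 and 512 in EV libraries, 244, 170 and 219 under construct 86 and 129, 246 and 325 under construct 87. The construct 86 libraries did not overlap EV and just missed the threshold (log2 -0.91, adjusted p = 0.0517), whereas 1 construct 87 library reached into the EV range (-0.85, adjusted p = 0.124). With the block these were 0.0105 and 0.0270.

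Spindle microtubule factors held the largest single fall and some of the smallest, with 4 of 8 lower with construct 86, 5 of 8 with construct 87, and medians of -0.81 and -1.08. HMMR (ENSG00000072571.19) stood at 956, 1268 and 1517 normalised reads in EV libraries, 81.4, 133 and 227 under construct 86 and 230, 363 and 452 under construct 87. It fell with construct 86 by 9.01-fold (log2 -3.17 ± 0.37 SE, adjusted p = 0.000247) and by 3.64-fold with construct 87 (adjusted p = 0.0124; 0.0683 without construct 87 replicate 1). NUSAP1, which bundles microtubules around chromosomes, was at 1151, 1590 and 1155 in EV libraries, 478, 460 and 412 under construct 86 and 417, 763 and 676 under construct 87. Its fall was 2.86-fold (adjusted p = 0.00128) and 2.14-fold (adjusted p = 0.0199; 0.0810 without construct 87 replicate 1 and 0.0546 without EV replicate 1). PRC1, which cross-links antiparallel microtubules in the midzone, stood at 2510, 3701 and 1842 in EV libraries, 1287, 1212 and 1163 under construct 86 and 936, 1668 and 1215 under construct 87. It fell by 2.11-fold (adjusted p = 0.0125) and by 2.08-fold (adjusted p = 0.0359), the second call ending in 6 of 9 omissions (adjusted p up to 0.162, without construct 87 replicate 1).

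Of the other spindle factors, TPX2, which activates Aurora A on the spindle, fell with construct 86 by 1.79-fold (adjusted p = 0.0364; 0.115 without construct 86 replicate 3) and had -0.96 with construct 87 (adjusted p = 0.0521, and 0.0083 with the block). DLGAP5, which stabilises microtubules near chromosomes, and GTSE1, a microtubule tip protein, fell with construct 87 by 2.33-fold and by 2.51-fold (adjusted p = 0.0244 and 0.0241) and had -0.78 and -0.66 with construct 86 (adjusted p = 0.0560 and 0.120, or 0.0277 and 0.0288 with the block). Without construct 87 replicate 1 their construct 87 calls ended (adjusted p = 0.101 and 0.115). ASPM and CKAP2 passed with neither. ASPM, a spindle pole protein, stood at 1192, 2943 and 1298 in EV libraries, 1081, 1339 and 720 under construct 86 and 596, 1279 and 730 under construct 87. EV replicate 2 was the highest of the 9, and the changes on the log2 scale were -0.71 (adjusted p = 0.180) and -1.01 (adjusted p = 0.125), or 0.00917 and 0.00346 with the block. CKAP2, a microtubule stabiliser, was at 1501, 1606 and 1549 in EV libraries, 1770, 1359 and 1360 under construct 86 and 749, 1080 and 1268 under construct 87. Its EV libraries were tight, construct 86 straddled them (log2 -0.06, adjusted p = 0.841), and construct 87 lay below (-0.62, adjusted p = 0.0937, and 0.0330 with the block).

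Genes of cytokinesis fell in 3 of 3 members with construct 86 and 0 of 3 with construct 87, with medians of -0.66 and -0.67 on the log2 scale. They fell in 3 of 3 with each under the block, and in 2 of 3 with construct 87 at an unadjusted p under 0.05. Between the constructs 0 of these 3 differed past the threshold (limma), against 25.6% of all genes, and 1 did with the block, against 44.1%. At an unadjusted p under 0.05, for which no share of all genes was computed, 1 differed between the constructs. ANLN (ENSG00000011426.10), anillin, a scaffold of the contractile ring, stood at 2978, 5794 and 2642 normalised reads in EV libraries, 1320, 1210 and 1034 under construct 86 and 1779, 3211 and 1956 under construct 87. It fell with construct 86 by 3.02-fold (adjusted p = 0.00343); with construct 87 it overlapped EV (-0.68, adjusted p = 0.194, and 0.0268 with the block). ECT2, which activates RhoA at the cell equator, was at 1292, 1707 and 1367 in EV libraries, 1149, 893 and 844 under construct 86 and 815, 1146 and 1028 under construct 87. The fall was 1.51-fold with construct 86 (adjusted p = 0.0431, lost in 7 of 9 omissions, up to 0.135 without construct 86 replicate 2), and -0.55 on the log2 scale with construct 87 (adjusted p = 0.115, and 0.0373 with the block). RACGAP1, the centralspindlin partner of KIF23, was at 2030, 2034 and 1553 in EV libraries, 1465, 1202 and 917 under construct 86 and 1054, 1316 and 1147 under construct 87. It fell with construct 86 by 1.58-fold (adjusted p = 0.0336; 0.128 without construct 86 replicate 3), and construct 87 gave -0.67 (adjusted p = 0.0721, and 0.0114 with the block).

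TOP2A and MKI67 stand for chromosome structure and for the Ki-67 antigen. TOP2A (ENSG00000131747.14), topoisomerase II alpha, which untangles sister DNA, stood at 6103, 7539 and 5360 normalised reads in EV libraries, 2991, 2822 and 2440 under construct 86 and 2229, 3778 and 3684 under construct 87. It fell by 2.29-fold (adjusted p = 0.00366) and by 2.0-fold (adjusted p = 0.0257; 0.110 without construct 87 replicate 1 and 0.0796 without EV replicate 1), and no knockdown library reached the lowest EV library. MKI67 (ENSG00000148773.13), the widely used proliferation marker that coats mitotic chromosomes, was at 2070, 6579 and 1132 in EV libraries, 2653, 3141 and 1068 under construct 86 and 1085, 2063 and 566 under construct 87. Within numbers its pair differences with construct 87 were -0.93, -1.67 and -1.0 on the log2 scale, and with construct 86 they were 0.36, -1.07 and -0.08. The EV range held 3 of the 6 knockdown libraries. On the log2 scale it gave -0.26 with construct 86 (adjusted p = 0.780) and -1.20 with construct 87 (adjusted p = 0.263, and 0.00279 with the block). The log2 fold change with construct 86 turned to 0.44 without EV replicate 2 and to 0.21 without construct 86 replicate 3.

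The constructs were compared with each other to find members whose level depended on the construct. Of 51 members, 3 were higher and 1 was lower with construct 87 than with construct 86, against 12.7% and 12.9% of all genes and 25.6% in either direction. HMMR was higher with construct 87 by 1.31 ± 0.37 SE on the log2 scale (adjusted p = 0.0258), CCNB2 by 0.74 ± 0.21 (adjusted p = 0.0278) and AURKB by 0.77 ± 0.25 (adjusted p = 0.0402). For these 3 genes every construct 87 library lay above every construct 86 library and below every EV library. NEK2 (ENSG00000117650.12) went the other way, at 1007, 802 and 885 normalised reads in EV libraries, 765, 428 and 511 under construct 86 and 206, 293 and 397 under construct 87. It fell with construct 87 by 3.09-fold (adjusted p = 0.00707), had -0.70 with construct 86 (adjusted p = 0.0742, and 0.0336 with the block), and differed between constructs by -0.93 ± 0.28 SE (adjusted p = 0.0323). Each of the 4 calls was lost when 1 of 4 or 5 libraries was left out, with adjusted p up to 0.0915 for HMMR (without construct 86 replicate 1), 0.114 for CCNB2 (without construct 86 replicate 2), 0.153 for AURKB (without construct 87 replicate 2) and 0.120 for NEK2 (without construct 87 replicate 1). The AURKB difference also ended with the length trend removed.

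With the replicate block, 15 members differed between constructs, 8 higher and 7 lower with construct 87, against 44.1% of all genes. ANLN then was higher with construct 87 by 0.92 on the log2 scale (adjusted p = 0.0542 without the block and 0.00365 with it), and CKS2 by 0.94 (0.205 and 0.0168). Lower with construct 87 were CDC25B by -0.73 (0.0727 and 0.0025) and MKI67 by -0.94 (0.326 and 0.00525). By function, the extremes of the group medians were 0.22 for the cyclin and CDK1 group and -0.48 for centromere and kinetochore genes. Of the latter 6 of 6 had a negative difference, for which no share of all genes was computed. Of these 6, 0 passed without the block and 1 with it. In the cyclin and CDK1 group 1 of 10 passed without the block, and with it 1 was lower and 2 were higher. Of all genes 25.6% differed without the block and 44.1% with it.

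**Figure D4:**
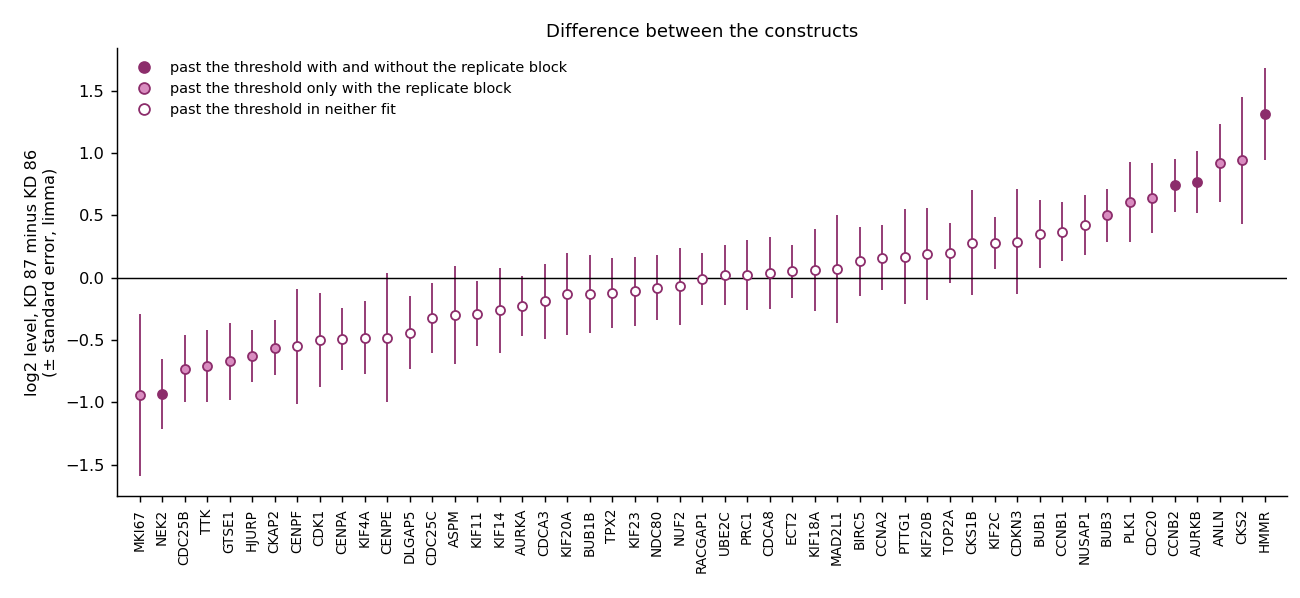
For each of the 51 genes the point is the log2 level with construct 87 minus that with construct 86, with its limma standard error, ordered by size. MKI67, NEK2 and CDC25B lie at the low end and HMMR, CKS2 and ANLN at the high end; dark points (NEK2, CCNB2, AURKB, HMMR) passed without and with the block, pale ones only with it.

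Libraries of 1 group differed along transcript length, and so did the members. Across the 51 members, Spearman's rho between transcript length and the deviation from the group mean was 0.682 in EV replicate 2, 0.545 in construct 86 replicate 2 and 0.535 in construct 87 replicate 2. In the other libraries it lay between -0.66 and 0.139. These are descriptions over genes that share each library. In EV replicate 2 the 10 shortest members (613 to 1969 bases, CKS2 and CKS1B among them) had a median deviation of -0.47, and the 10 longest (4860 to 12678 bases, with MKI67, ASPM, CENPF and CENPE) one of 0.60. MAD2L1 and BUB3, also among the 10 longest by their longest transcript, deviated downward there, by -0.91 and -0.26. The fold changes followed length too, with rho of 0.534 and 0.494 over the members and of 0.325 and 0.233 over 13770 genes with a length. The 10 shortest members had a median log2 fold change of -1.31 with construct 86 and -1.33 with construct 87, and the 10 longest -0.81 and -1.0. Once a smooth trend in length was taken out of each library, 38 members fell with each construct, against 18.8% and 7.27% of all genes called lower, and with the block as well 46 and 51 did, against 28.6% and 18.0%. Of the 5 members among the 10 longest that had passed with neither construct, ASPM, KIF14 and CENPE then passed with both (adjusted p = 0.00747 and 0.0141 for ASPM, 0.0211 and 0.0366 for KIF14, 0.0421 and 0.0431 for CENPE), and MKI67, the longest (0.25 and 0.0609), and CENPF (0.404 and 0.19) with neither. The construct 86 calls of CDC25C (0.0936), CDCA8 (0.0842) and NUF2 (0.0755) and the construct 87 call of AURKB (0.0567) ended.

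**Figure D5:**
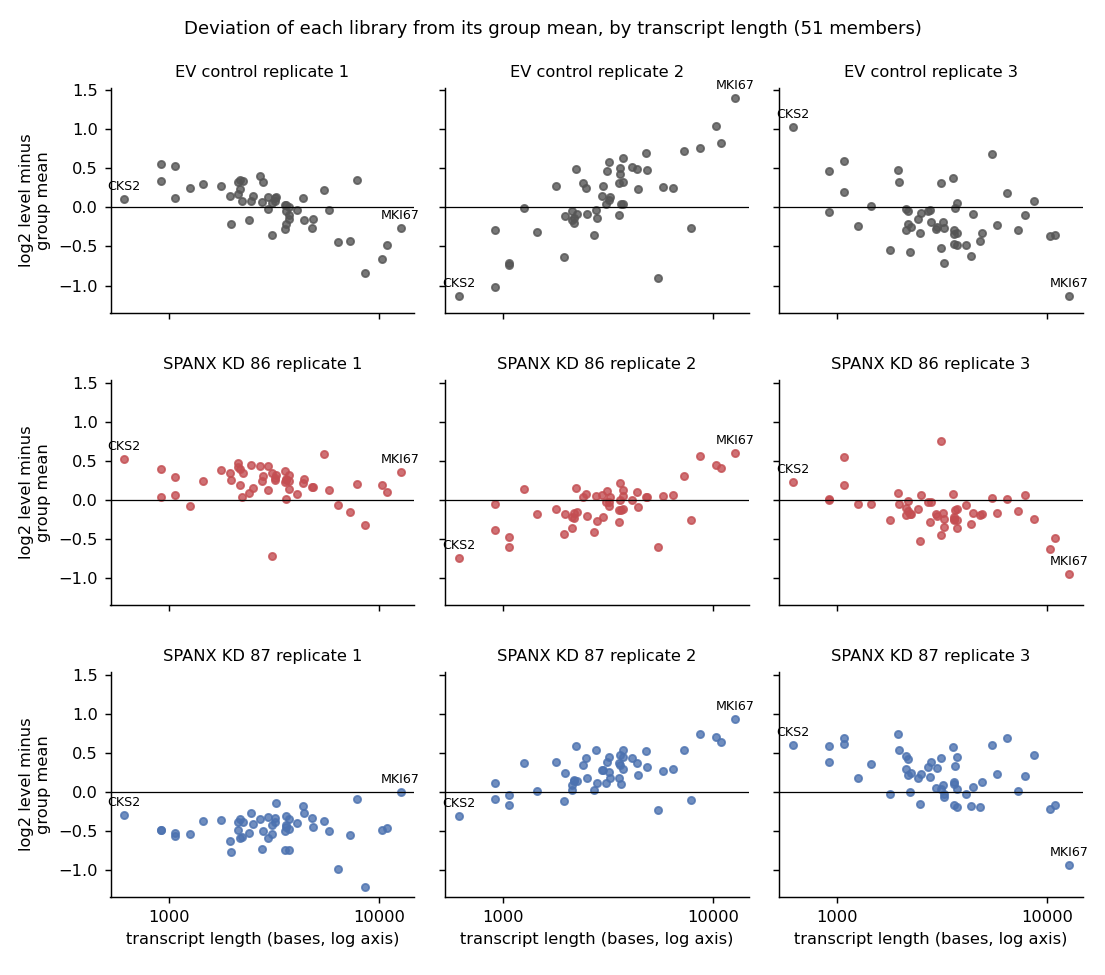
Each panel is 1 library and each point 1 of the 51 genes, with transcript length in bases on a log axis and the log2 level minus its group mean on the vertical axis. In the 3 replicate 2 libraries long genes such as MKI67 lie high and short ones such as CKS2 low, though the long MAD2L1 and BUB3 lie low as well. In the EV and construct 86 replicate 1 and 3 libraries the slope is the reverse.

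A second list of mitosis genes outside the 51 was read the same way, with 113 tested of 114 listed. It too was chosen with earlier results of these data known, so its counts are no independent test. With construct 86, 28 fell and 3 rose, and with construct 87, 28 fell and 1 rose, with medians of -0.39 and -0.64. The falls are 24.8% of the list with each construct, against 17.6% of all genes with construct 86 and 4.43% with construct 87, and the rises are 2.65% and 0.885%, against 18.0% and 5.91%. With the block and construct 86, 52 fell and 10 rose (46.0% and 8.85%, against 28.3% and 27.0% of all genes), and with construct 87, 61 fell and 3 rose (54.0% and 2.65%, against 14.8% and 16.1%). Further kinesins, spindle and cytokinesis factors fell in 15 of 29 with construct 86 (51.7%) and 8 of 29 with construct 87 (27.6%). Among them SAPCD2, a regulator of spindle orientation, stood at 877, 1098 and 500 normalised reads in EV libraries, 149, 148 and 154 under construct 86 and 268, 448 and 286 under construct 87. It fell by 5.18-fold (adjusted p = 0.000352) and by 2.41-fold (adjusted p = 0.0244; 0.114 without construct 87 replicate 1). KNSTRN, a kinetochore and spindle adaptor, fell by 2.47-fold (adjusted p = 0.000377) and by 1.5-fold (adjusted p = 0.0486, lost without any 1 of the 9 libraries, up to 0.194 without construct 87 replicate 1). Subunits and partners of the anaphase-promoting complex were called lower in 5 of 20 (25.0%, against 17.6% of all genes) and 3 of 20 (15%, against 4.43%). The smallest adjusted p with both constructs averaged were those of UBE2S, which extends ubiquitin chains (3.15-fold, adjusted p = 0.00114, and 2.22-fold, adjusted p = 0.0213), and ANAPC15 (3.29-fold, adjusted p = 0.000872, and 1.99-fold, adjusted p = 0.0351). The construct 87 calls of both ended without construct 87 replicate 1 (adjusted p = 0.105 and 0.126), and ANAPC15 reached 0.127 without EV replicate 1.

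Of further kinetochore and centromere subunits, 4 of 31 were called lower with construct 86 (12.9%, under the 17.6% of all genes) and 10 of 31 with construct 87 (32.3%, against 4.43%). SPC24, of the NDC80 complex, fell with construct 87 by 2.73-fold (adjusted p = 0.00934) and had -0.68 with construct 86 (adjusted p = 0.0690, and 0.0386 with the block), and CENPN, which binds CENPA nucleosomes, fell by 1.87-fold and by 2.17-fold (adjusted p = 0.0224 and 0.0250; 0.0874 without EV replicate 1 and 0.114 without construct 87 replicate 1). Of condensin and cohesin genes, 2 of 18 were called lower with construct 86 (11.1%, also under the share of all genes) and 3 of 18 with construct 87 (16.7%, against 4.43%). The condensin subunit NCAPG fell with construct 86 by 1.98-fold (adjusted p = 0.00739), with -0.70 for construct 87 (adjusted p = 0.0732, and 0.00924 with the block), and SMC4 had -0.75 and -0.76 (adjusted p = 0.0622 and 0.116, or 0.00882 and 0.0171 with the block).

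Of 15 tested kinases and phosphatases of mitosis, 2 were called higher with construct 86 (13.3%, under the 18.0% of all genes). With that construct 2 were lower (13.3%, under the 17.6% of all genes). With construct 87, 1 was higher (6.67%, against 5.91% of all genes) and 4 lower (26.7%, against 4.43%). WEE1, the kinase that holds CDK1 inactive by phosphorylating it, stood at 608, 520 and 457 normalised reads in EV libraries, 1961, 1755 and 1738 under construct 86 and 1627, 857 and 814 under construct 87. All 6 knockdown libraries lay above all EV libraries, and it rose by 3.46-fold (adjusted p = 0.000739) and by 1.99-fold (adjusted p = 0.0361; 0.116 without construct 87 replicate 1). PKMYT1, the related inhibitor of CDK1 at membranes, fell instead, from 896, 944 and 676 to 386, 415 and 387 under construct 86 and 186, 432 and 329 under construct 87. Its fall was 2.09-fold (adjusted p = 0.0151) and 2.78-fold (adjusted p = 0.0108), and both calls ended without EV replicate 1 (adjusted p = 0.0543 and 0.0527). MASTL, the Greatwall kinase that protects CDK1 phosphorylations, was at 371, 412 and 373 in EV libraries, 605, 574 and 577 under construct 86 and 265, 350 and 334 under construct 87. It rose 1.52-fold with construct 86 (adjusted p = 0.0233; up to 0.0717 with 1 library left out, without construct 86 replicate 2) and had -0.29 with construct 87 (adjusted p = 0.317). MAD2L1BP, the p31comet protein that takes MAD2 off CDC20 and so ends the checkpoint signal, belongs to the anaphase-promoting complex list and rose 1.97-fold with construct 86 (adjusted p = 0.00488), with -0.22 for construct 87 (adjusted p = 0.527).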

How the data were processed

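The deposited tables of the 9 QuantSeq libraries hold 1 score per gene: reads that the authors scaled by a factor per library and rounded. The submitters' processing notes name STAR, featureCounts, Subread, edgeR and hg19, with no version. Of 60420 gene IDs, 45742 were at 0 throughout. The constant behind each library was recovered from the spacing of its values, the reads were computed from it, and the libraries were rescaled together with the TMM formula (30% of log ratios and 5% of abundances trimmed). Because the values are scaled, limma 3.58.1 in R 4.3.3 was used, as foreseen for that case. Tested were the 13825 genes above 0 in at least 1 construct 87 library and in at least 1 library of the other groups. Settings were log2(value + 1), variance trend, 1 coefficient per group, two-sided, Benjamini-Hochberg over these genes, threshold 0.05. A fold change is on that log2(value + 1) scale. The fit was tested on simulated data. Members and lists were chosen with earlier results of these data known. To see whether replicate numbers pair libraries, deviations from group means were correlated over 13311 genes. The r was 0.208 to 0.745 for libraries of the same number and -0.66 to 0.151 for other numbers. EV replicate 1 had 0.208 with construct 87 replicate 1 and 0.151 with construct 87 replicate 3. Block values are given where they change a call of a member against EV control, and for some of the other calls. Lengths are the longest GENCODE basic transcript (99.6% of tested genes), fitted with a spline of 4 degrees of freedom. Named in detail were, by rule, in each functional group the up to 3 members of smallest adjusted p when both constructs are averaged, plus CCNB1, CDK1, PLK1, AURKB, MAD2L1, TOP2A, MKI67 and every member that rose, differed between constructs or passed with neither. Of the other mitosis genes the rule named the up to 2 with the smallest such p in each group and those that rose. Alternatives tried were other scalings, pseudocounts, filters, variance models, the block, the length trend and leaving out each library. Gene coordinates in hg19 were not used here, and 1 other mitosis gene that is in the counts is not reported here.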

Additional observations from a re-analysis of the deposited data

Results flagged for a closer look

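These 20 genes differed between the constructs past the threshold (limma, adjusted p under 0.05), with values as the log2 level with construct 87 minus that with construct 86. Among the members, HMMR had 1.31, CCNB2 0.74, AURKB 0.77 and NEK2 -0.93. Of the 113 other mitosis genes tested, 13 were lower (11.5%) and 4 higher (3.54%) with construct 87, against 12.9% and 12.7% of all genes. SAPCD2 had 1.11 (adjusted p = 0.0205) and KNSTRN 0.72 (adjusted p = 0.01). WEE1 had -0.80 (adjusted p = 0.0444), MASTL -0.90 (adjusted p = 0.00468) and MAD2L1BP -1.19 (adjusted p = 0.00231). The rest given here lie outside the rule for named genes and were added after their values were seen. SKA2 was higher with construct 87 (0.81, adjusted p = 0.0106). Lower were CENPP, a subunit of the centromere-associated network (-2.03, adjusted p = 0.0054), SMC1A (-1.36), CDCA5 (-1.01), SGOL1 (-1.0), FAM83D (-0.99), CENPM (-0.92), BORA (-0.89), SKA1 (-0.88), CDC23 (-0.88) and ANAPC5 (-0.51), with adjusted p from 0.00527 for CDC23 to 0.0483 for SGOL1. With 1 library left out in turn, 4 of the 16 calls given for other mitosis genes held throughout (CENPP, CDC23, MASTL and MAD2L1BP) and 12 ended at least once, up to adjusted p = 0.158 for SGOL1 without construct 87 replicate 1. Of those named by the rule, WEE1 lost the call in 6 of 9 omissions (adjusted p up to 0.151, without construct 87 replicate 2 or 3), SAPCD2 in 3 (up to 0.0833, without construct 87 replicate 2) and KNSTRN in 1 (0.0506, without construct 87 replicate 2).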

How the results depend on the processing

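With the replicate block the count of members past the threshold was 49 with construct 87 and 15 between the constructs. Of all genes 14.8% were called lower with construct 87 and 44.1% differed between the constructs in that fit. With the block 62 and 64 of the other mitosis genes passed with constructs 86 and 87. With the block and the length trend removed together the same counts, in that order, were 51, 15, 54 and 72. The length trend alone gave 7 members between the constructs. For the other counts in this paragraph no share of all genes is given here, and they describe the fits only. Of 146 tests of named genes, the block brought 36 past the threshold and ended 0, and removing the variance trend ended 17. Leaving out 1 library gave 23 to 37 members with construct 86, 6 to 29 with construct 87 and 1 to 7 between the constructs, and 16 to 47 and 4 to 39 other mitosis genes. With 1 library left out, CDC25B with construct 86 ran from -0.19 to 0.21 (positive without EV replicate 2, 0.21, and construct 86 replicate 3, 0.07), MKI67 with construct 86 from -0.83 to 0.44 (0.44 and 0.21 without those libraries), CENPF with construct 86 from -0.25 to 0.60 (negative without EV replicates 1 and 3 and construct 86 replicates 1 and 2) and CENPF with construct 87 from -0.82 to 0.05 (positive without EV replicate 2). CENPF with construct 86 was also at -0.39 with the length trend removed, with or without the block. No sign turned and no member count moved by over 1.5 times with the values as deposited, median-of-ratios scaling, a pseudocount of 5 or a minimum mean of 20. With no filter 6 members differed between the constructs. The cause of these changes was not tested. The planned edgeR alternative was not run, since the deposited values are not counts. With 3 libraries a group, changes may go uncalled, also ones near the members' median size.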
